A study of Arabidopsis thaliana with 4 samples.

Results

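The genes described here are the 78 gene models, of 30361 on the array, that the annotation in the array files places in the hAT superfamily of DNA transposons. The rule reads the gene descriptions and no measured value: the text names a transposon, transposase or retroelement together with hAT or hobo, and none of the CACTA, Mutator, Gypsy, Copia, Athila or non-LTR classes. Expression was measured in Arabidopsis thaliana seedlings on day 7 with single-colour Cy3 NimbleGen arrays. The first group was TEKi, transgenic plants with an artificial microRNA against TEK, labelled as a TEK knockdown with late flowering, and the second was wild type with normal flowering time. Both groups carry the Ler label, were grown on MS medium plates and had 2 arrays each from separate cultures. The sources used here give neither the promoter of the microRNA nor whether the TEKi plants came from 1 line.

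hAT elements take their name from hobo of Drosophila, Ac of maize and Tam3 of snapdragon. They move by cut and paste: a transposase, which carries a BED-type zinc finger and a C-terminal dimerization domain, binds the short inverted repeats at the ends of the element, excises it and inserts it elsewhere. Copies that have lost a working transposase gene can still be moved by a transposase made from another copy. In plants most copies are kept silent by DNA methylation and by methylation of histones, and a few transposase genes have become ordinary host genes, of which DAYSLEEPER of Arabidopsis is the best known.

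The annotation gives the closest known transposase of each gene. It was Tag2 of Arabidopsis for 55 of the 78 genes, the maize Ac protein for 19 and the snapdragon Tam3 protein for 3, and 1 gene had only weak similarity. The RefSeq gene table (TAIR10.1), used for names and gene types, holds all 78 loci and lists 77 as pseudogenes and 1, DAYSLEEPER, as protein-coding. Each gene rested on 2 probe pairs (67 genes) or 3 (11 genes), and none of the 78 models stands for several loci. The gene models follow annotation release 6, made on the Columbia genome, and whether each copy is present in Ler was not tested.

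The deposited files disagree on which arrays belong to which group, so arrays are called here by letters. Array T is TEKi and array W is wild type in both sources. Array X was filed as wild type 2 but stands under TEKi 1 in the value table of the series, and array Y was filed as TEKi 1 but stands under wild type 2 there. With the array-file labels TEKi is therefore Y and T and wild type is W and X, and with the value-table labels TEKi is X and T and wild type is W and Y. Both comparisons use the same 4 arrays, so one is no check on the other, and each is given in turn.

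TEK (AT2G42940), the target of the microRNA, had deposited intensities of 9864 on Y and 13770 on T, against 13406 on W and 14118 on X. The array-file log2 difference was -0.24 (TEKi minus wild type, moderated SE 0.249, n = 2 arrays per group, limma adjusted p = 1) and the value-table difference 0.28 (SE 0.226, limma adjusted p = 0.694), so neither set of labels showed a lower TEK signal past the threshold. For TEK the groups overlapped with the array-file labels. With the value-table labels both TEKi arrays lay above both wild-type arrays for TEK, as for 27.7% of all genes. Green shoot markers were near the top of the scale on every array (5 genes, summed intensity 290275 to 316269), and the 5 root markers summed to between 77923 and 100199. With the value-table labels the 4 seed genes summed to 5834 on X and 10810 on T, against 33947 on W and 29192 on Y. Of the 4, 1 fell, the storage protein gene CRA1, with 739 on X and 1388 on T, against 15671 on W and 14517 on Y (limma adjusted p = 0.0464). The others did not pass. OLEO1 had 2210 and 7485 on X and T, against 14132 and 12713 on W and Y. SESA1 had 351 and 342 on X and T, against 1091 and 398. In AT2S4 the groups overlapped, with 2535 and 1595 on X and T, against 3053 and 1563 on W and Y. With the array-file labels the 4 floral genes summed to 25931 on Y and 15086 on T, against 43231 on W and 52695 on X, and none passed. SEP3 made up most of each sum, with 24867 on Y and 13838 on T, against 40361 on W and 49145 on X. Both TEKi arrays lay below both wild-type arrays for all 4 floral genes, against 14.7% of all genes. Under the other labels the groups overlapped for all 4 floral genes (value-table labels) and for 3 of the 4 seed genes (array-file labels). No marker was at 0 on any array. The part of seed or floral transcripts in the results below was not tested.

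Most hAT genes were dim. The lower quartile of all genes on an array lay at an intensity of 456 to 496. Of the 78 hAT genes, 55 were under that level on T, 58 on X, 40 on Y and 49 on W. The median hAT intensity was 185 on T and 120 on X, against 437 on Y and 217 on W. On all 4 arrays 37 of the 78 genes stayed under it, a pattern shown by 17.9% of all genes tested, and 15 of the 78 were above it on all 4. Which dim values lie above background is not known, since no detection calls entered the fits. Brightness here ranks signals, not transcript levels, since probes differ between genes. In seedling RNA, fewer expressing cells and less RNA per cell cannot be told apart.

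The hAT genes varied widely between arrays. The highest and lowest array differed by over 4-fold for 36 of the 78 genes, against 14.9% of all genes, and by under 2-fold for 16, against 59.9% of all genes. The genes that varied least included the bright ones. DAYSLEEPER (AT3G42170, chromosome 3, 14331938 to 14335055), which encodes a DNA-binding protein derived from a transposase and needed for normal development, had intensities of 30637 on T, 28634 on X, 32585 on Y and 31803 on W. That was the narrowest range of the 78 genes, and its log2 difference was 0.066 (SE 0.175) with the array-file labels and -0.12 (SE 0.157, limma adjusted p = 0.816) with the value-table labels. AT1G80020 was the brightest, at 54640 on T, 49617 on X, 61209 on Y and 60830 on W, still under the ceiling of the scale at 64047.

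AT3G14800 had intensities between 16926 and 20687 on the 4 arrays, and AT4G13120 between 5083 and 8126. CYTOSLEEPER (AT1G15300), named in RefSeq after the same SLEEPER family as DAYSLEEPER, had 4828 on T, 5526 on X, 4066 on Y and 4042 on W. AT1G69950 had 5332 on T, 4564 on X, 4569 on Y and 3428 on W. These 6 brightest hAT genes ranged over 0.19 to 0.68 log2 units between arrays, all 6 rested on 3 probe pairs, and none passed the threshold under either set of labels. Their value-table log2 differences lay between -0.23 and 0.44.

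**Figure D1:**
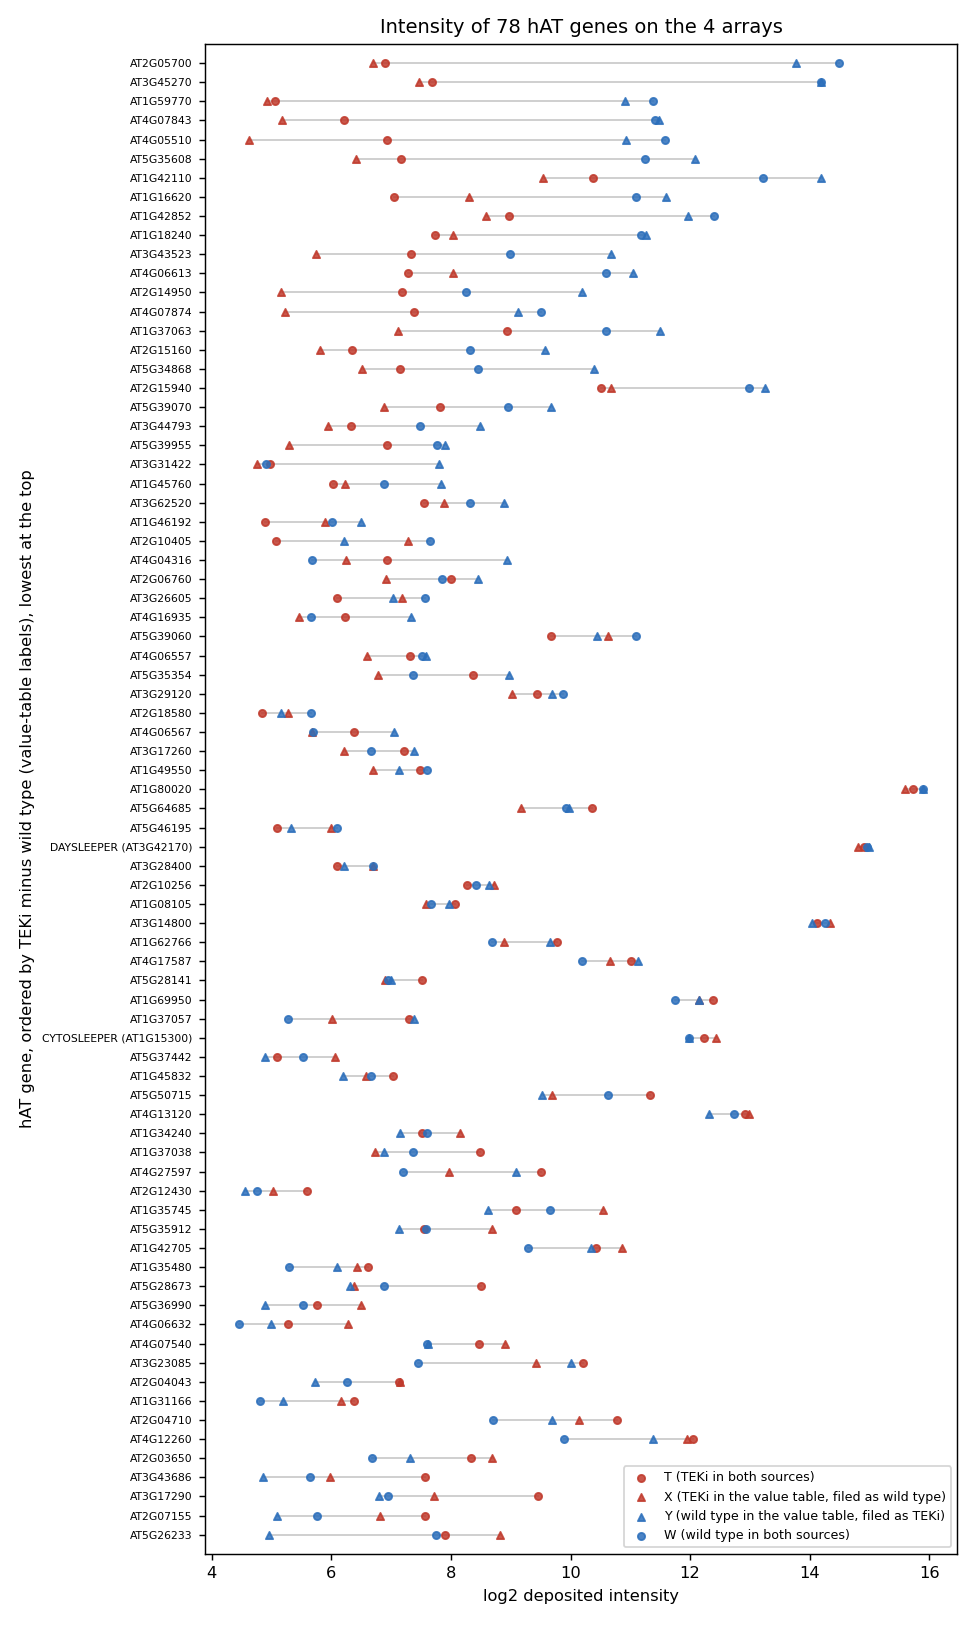
Log2 deposited intensity (x axis) of each of the 78 hAT genes (rows) on the 4 arrays, ordered by the value-table log2 difference with the lowest at the top; red marks are arrays labelled TEKi in the value table (T, X), blue marks those labelled wild type there (Y, W), and triangles are the 2 arrays whose label differs between sources. At the top, red and blue marks stand far apart, by up to 7.81 log2 units, while the bright genes DAYSLEEPER and CYTOSLEEPER sit in the middle with narrow ranges.

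With the array-file labels no hAT gene passed the threshold of adjusted p = 0.05. Limma called 0 of 78, as it called 0.0% of all genes tested, and the smallest adjusted p among hAT genes was 1. At an unadjusted p under 0.05 there were 9 of 78, against 4.61% of all genes, and with plain per-gene variance 0 were called and 5 of the 78 were under that p. The median log2 difference of hAT genes was 0.31 against 0.0060 for all genes tested, with 51 values above 0 and 27 below. It was 0.026 without array Y, 0.58 without array W and -0.062 without array X, so its size and sign rested on single arrays. Both TEKi arrays lay above both wild-type arrays for 16 of 78 genes (15.3% of all genes) and below for 11 (14.7% of all genes).

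The larger array-file differences were found mainly among dim genes. AT1G37057 had 167 on Y and 158 on T, against 38.8 on W and 64.8 on X (log2 difference 1.70, SE 0.332, limma adjusted p = 1). AT4G27597 had 545 and 725 on Y and T, against 146 and 251 on W and X (log2 difference 1.71, SE 0.379, limma adjusted p = 1). In both genes the groups did not overlap, but the difference was far from the threshold once all genes were counted. AT4G04316 had the largest difference above 0 among genes whose groups did not overlap, at 490 on Y and 123 on T, against 51.2 on W and 75.9 on X (log2 difference 1.98, SE 0.826), where 1 TEKi array stood well above the other.

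In AT3G23085 the 2 wild-type arrays lay far apart, with 1028 on Y and 1182 on T, against 175 on W and 690 on X. AT5G35354, AT3G31422, AT4G16935 and AT4G06567 completed the 8 largest values above 0 without overlap, with log2 differences of 1.59, 1.56, 1.22 and 1.03. In AT3G31422 that value came from array Y alone, at 223, against 27.1 to 31.4 on the other arrays. Below 0, among genes without overlap, the largest differences were those of AT2G10405 (74.2 on Y and 33.5 on T, against 201 on W and 155 on X, log2 difference -1.82, SE 0.497) and AT1G35745 (394 and 546 against 807 and 1501, log2 difference -1.25, SE 0.426). AT5G39060, of the Tag2 type, had 1400 on Y and 819 on T, against 2199 on W and 1583 on X. The other 5 of that set, AT5G46195, AT3G26605, AT5G35912, AT5G37442 and AT3G28400, had log2 differences from -0.84 to -0.55. None of these genes passed, and single arrays decided several values: AT4G04316 had 0.98 without Y and 2.98 without T, AT3G31422 had 0.14 without Y, and AT3G23085 had 0.67 without W.

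With the value-table labels 8 of the 78 hAT genes fell in TEKi and 0 rose, against 1.95% that fell, 0.273% that rose and 2.22% called in either direction among all genes tested. AT2G05700 (Ac type, chromosome 2, 2134581 to 2136768) had intensities of 103 on X and 119 on T, against 23136 on W and 14004 on Y. It was 163-fold lower in TEKi (log2 difference -7.34, SE 0.322, n = 2 per group, limma adjusted p = 0.0151). AT3G45270 (Tag2 type, chromosome 3, 16612308 to 16614548) had 176 and 206 on X and T, against 18634 and 18781 on W and Y, and was 98.4-fold lower (log2 difference -6.62, SE 0.174, limma adjusted p = 0.0128). Both genes were thus bright on W and Y and lay under the lower quartile of the array on X and T.

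AT1G59770 (Tag2 type, chromosome 1, 21995192 to 21996318) had 30.3 on X and 33.4 on T, against 2670.2 on W and 1925 on Y (log2 difference -6.15, SE 0.240, limma adjusted p = 0.0133). AT4G07843 (Tag2 type, chromosome 4, 4665410 to 4667497) had 36.1 and 74.4 on X and T, against 2740.2 and 2863 on W and Y (log2 difference -5.76, SE 0.423, limma adjusted p = 0.0279). AT5G35608 (Ac type, chromosome 5, 13815701 to 13817893) had 84.7 and 143 on X and T, against 2430.0 and 4362 on W and Y (log2 difference -4.89, SE 0.454, limma adjusted p = 0.0431). These 3 were also under the lower quartile on both TEKi arrays and well above it on both wild-type arrays.

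The other 3 genes that fell changed less. AT1G42852 (chromosome 1, 16109464 to 16111886) had 382 on X and 501 on T, against 5435 on W and 3999 on Y, a 10.6-fold difference (log2 difference -3.41, SE 0.270, limma adjusted p = 0.0319). AT1G18240 (chromosome 1, 6274279 to 6275587) had 261 and 212 on X and T, against 2315 and 2471 on W and Y, a 10.2-fold difference (limma adjusted p = 0.0211). AT2G15940 (chromosome 2, 6949996 to 6951876) stayed above the lower quartile on both TEKi arrays, with 1643 on X and 1462 on T, against 8105 on W and 9748 on Y (5.74-fold, log2 difference -2.52, SE 0.193, limma adjusted p = 0.0302). All 3 are of the Tag2 type. In all 8 genes the groups did not overlap.

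**Figure D2:**
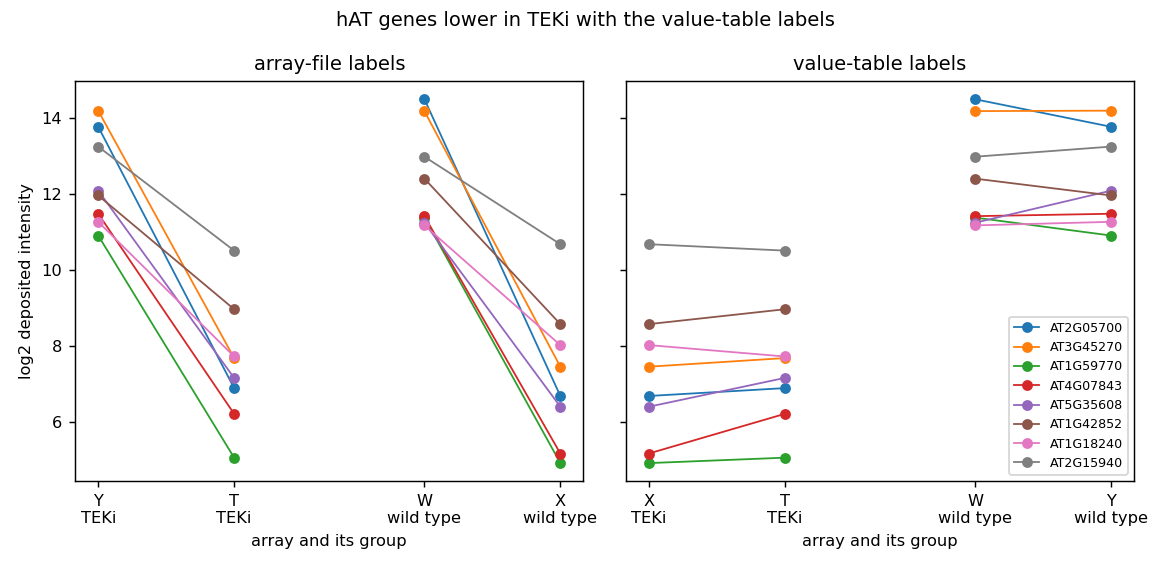
Log2 deposited intensity (y axis) of the 8 hAT genes lower in TEKi with the value-table labels, on each array, with lines joining the 2 arrays of a group; the left panel groups arrays by the array files and the right panel by the value table. In the right panel the genes lie at 30.3 to 1643 intensity units on arrays X and T and at 1925 to 23136 on W and Y, while in the left panel each group holds 1 high and 1 low array.

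Under the array-file labels the same 8 genes had log2 differences between -0.26 and 0.80, with SE from 1.40 to 4.06, since each group then held 1 high and 1 low array. With limma 0 of the 8 were called without array X, T, W or Y (smallest adjusted p of a hAT gene 0.0954, 0.0961, 0.245 and 0.244), with the replicate number as a block (0.0753) or with plain per-gene variance (0.174). Leaving out an array, or adding the block, leaves 1 residual degree of freedom, and 0 of all genes tested passed in those fits, so the lost calls say nothing particular about hAT genes. With the value-table labels that block is the array-file grouping itself. The log2 differences themselves stayed large without single arrays, at -7.71 to -6.98 for AT2G05700, -6.73 to -6.51 for AT3G45270, -3.50 to -3.20 for AT1G18240 and -2.65 to -2.39 for AT2G15940. At an unadjusted p under 0.05 there were 26 of 78 hAT genes with the value-table labels, against 14.4% of all genes tested, of which 21 were lower and 5 higher in TEKi.

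Several more genes had large differences without passing. AT4G05510 (Tag2 type) had 24.7 on X and 122 on T, against 3080 on W and 1948 on Y (log2 difference -5.48, SE 0.915, limma adjusted p = 0.120). Its 2 TEKi arrays were both dim but lay far apart. AT1G42110, among the 8 brightest hAT genes on average, had 746 and 1335 on X and T, against 9570 and 18696 on W and Y (log2 difference -3.74, SE 0.506, limma adjusted p = 0.0826). AT1G16620 had 315 and 133 on X and T, against 2196 and 3088 on W and Y (log2 difference -3.67, limma adjusted p = 0.0925). In all 3 the groups did not overlap.

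Over all hAT genes, both TEKi arrays lay below both wild-type arrays for 28 of 78 with the value-table labels, against 17.1% of all genes, and above for 17, against 27.7% of all genes. The median log2 difference was -0.20, against 0.090 for all genes tested, with 44 values below 0 and 34 above. The median was near 0 while single genes reached -7.34.

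The largest values above 0 with the value-table labels, among genes without overlap, came to at most 2.01. AT2G07155 (Ac type) had 113 on X and 189 on T, against 54.4 on W and 34.0 on Y (log2 difference 1.76, SE 0.409, limma adjusted p = 0.208). AT2G03650 had 411 and 324 on X and T, against 102 and 160 on W and Y (log2 difference 1.52, SE 0.315, limma adjusted p = 0.174). AT4G12260 was brighter, with 3934 and 4217 on X and T, against 949 and 2667 on W and Y (log2 difference 1.36, limma adjusted p = 0.443). AT5G26233, AT3G17290, AT3G43686, AT2G04710 and AT1G31166 made up the rest of the 8, with log2 differences of 2.01, 1.72, 1.52, 1.27 and 1.27. None of them passed. Single arrays decided the size of several: AT5G26233 had 0.62 without Y and 3.41 without W, AT3G17290 0.85 without T and 2.59 without X, and AT3G43686 0.72 without T and 2.32 without X. AT4G12260 had 0.61 and AT2G04710 0.77 without W.

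**Figure D3:**
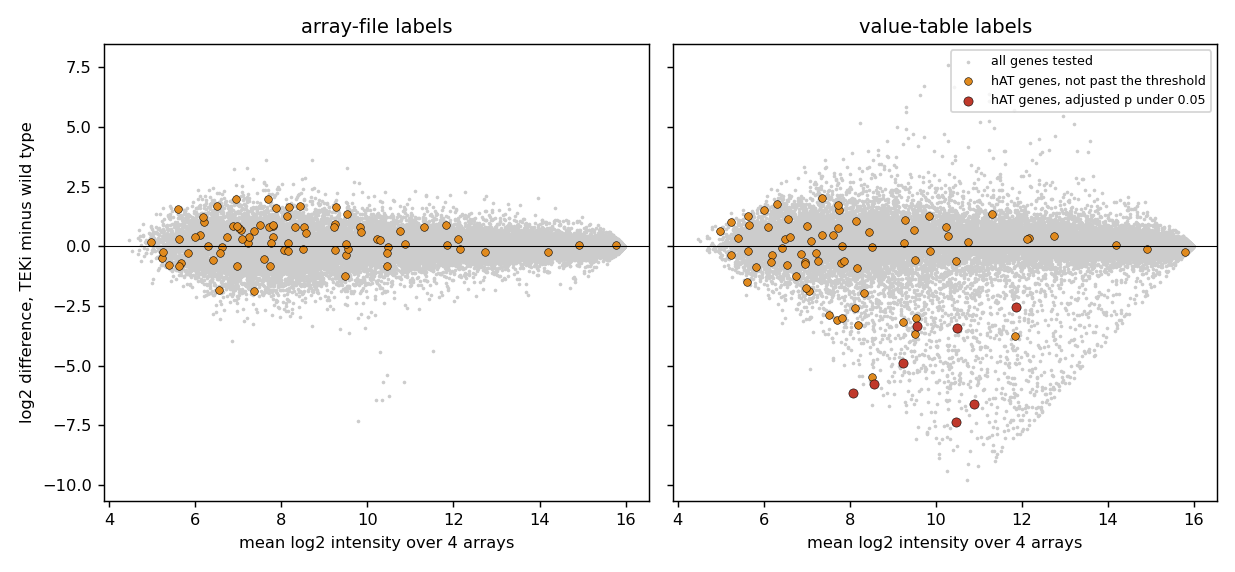
Log2 difference, TEKi minus wild type (y axis), against mean log2 intensity over the 4 arrays (x axis) for all 30352 genes tested (grey) and the 78 hAT genes (orange, red where adjusted p was under 0.05), with the array-file labels on the left and the value-table labels on the right. On the left the hAT genes lie between -1.86 and 1.98, and on the right between -7.34 and 2.01.

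Arrays T and W are the single pair whose labels do not depend on the source. With 1 array per group this pair has no replicate check and no test, and it is part of both comparisons above. T was over 4-fold below W for 14 of 78 hAT genes, against 4.92% of all genes, and over 4-fold above W for 6, against 2.5% of all genes. The 14 included all 8 genes that fell with the value-table labels, with T minus W between -7.60 and -2.47 on the log2 scale. The 6 above were AT3G23085, AT3G17290, AT4G27597, AT4G12260, AT2G04710 and AT1G37057, and the largest of these, AT3G23085, had a T minus W of 2.76. The median over the 78 genes was -0.066, against 0.073 for all genes.

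By type, 6 of the 55 Tag2 genes fell (10.9%), 2 of the 19 Ac genes (10.5%) and 0 of the 3 Tam3 genes, against 1.95% of all genes tested, so the shares of both large types were alike. The 8 genes lie on all 5 chromosomes. Gene models spanned 1127 to 2423 bases (median 2138) for these 8 and 226 to 4767 bases (median 1766) for the other 70. As a measure of neighbourhood, the share of transposable element genes was taken among the gene models starting within 250 kb on either side. It was 0 to 54.0% (median 17.1%) around the 8 genes and 0 to 64.5% (median 13.0%) around the other 70. AT1G18240 had no other transposable element gene within that distance, and AT3G45270 had 7.83%, whereas AT4G07843 had 54.0%. Among the 6 brightest genes the share was 51.0% around DAYSLEEPER and at most 9.09% around the other 5. These are descriptions, with no test.

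**Figure D4:**
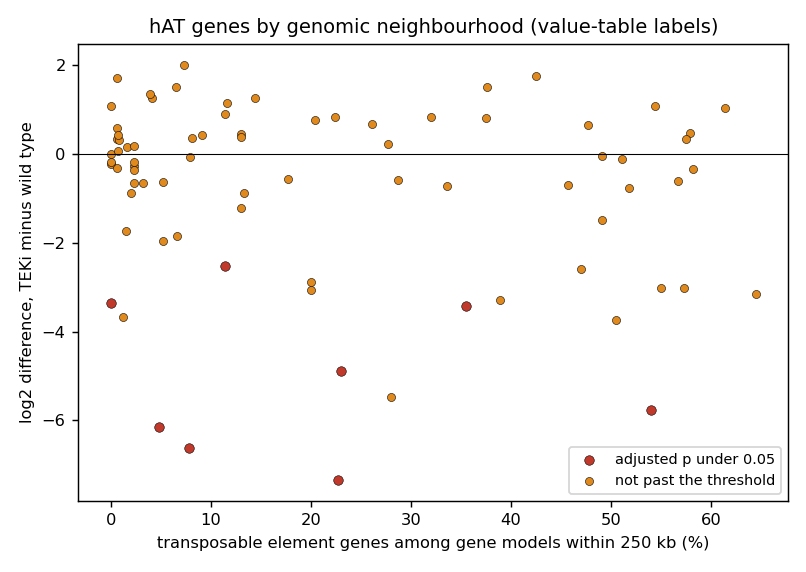
Value-table log2 difference, TEKi minus wild type (y axis), of the 78 hAT genes against the percentage of transposable element genes among gene models within 250 kb (x axis), red where adjusted p was under 0.05. The 8 red points run from 0 to 54.0% on the x axis.

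The nearest genes outside the transposable element class were read on both sides of each hAT gene. Of the 16 such neighbours of the 8 genes that fell, 2 also fell with the value-table labels, against 1.95% of all genes tested. They were AT1G42745, 7717 bases from AT1G42852 (240 on X and 196 on T, against 1780 on W and 1673 on Y), and AT4G07825, 20074 bases from AT4G07843 (819 and 1225 against 22670 and 26034). The median log2 difference of the 16 was -0.015. AT1G59780, 927 bases from AT1G59770, had 396 on X and 593 on T, against 2356 on W and 2159 on Y, so its groups did not overlap, but it missed the threshold (log2 difference -2.22, limma adjusted p = 0.0689). On the other side of AT1G59770, at 1353 bases, MTR4, an RNA helicase gene of nuclear RNA surveillance, had 25427 on X and 24409 on T, against 26033 on W and 29207 on Y. ACO3, an aconitase gene 4627 bases from AT2G05700, had 56091 and 62594 on X and T, against 49017 and 63301 on W and Y. Around the other 70 genes 4 of 134 neighbours fell, also against 1.95% of all genes tested. One of them was SADHU1-1 (AT2G10410), named for a family of retroposons and lying 220 bases from the hAT gene AT2G10405: it had 143 on X and 227 on T, against 45067 on W and 38248 on Y, while AT2G10405 itself had 155 and 33.5 against 201 and 74.2. These neighbours were chosen after their values were seen.

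In 5 cases hAT genes lay under 20 kb from each other, and such neighbours did not always share a pattern. AT5G39060 and AT5G39070 are 1543 bases apart. AT5G39070 had 118 on X and 226 on T, against 494 on W and 814 on Y. AT5G39060 had 1583 and 819 on X and T, against 2199 and 1400 on W and Y, where the groups overlapped. AT1G37063, 4155 bases from AT1G37057, had 139 and 492 on X and T, against 1540 and 2880 on W and Y, and AT1G37057 had 64.8 and 158 on X and T, against 38.8 and 167. None of these 4 genes passed under either set of labels, and the pair differences were not tested.

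The hAT genes were set beside other DNA transposons, with no test between the classes. With the value-table labels 10.3% of the 78 hAT genes fell, 10.1% of 278 Mutator genes, 32.9% of 340 CACTA genes and 10.4% of all 2449 transposable element genes tested. Both TEKi arrays lay below both wild-type arrays for 35.9% of hAT, 40.6% of Mutator and 60.9% of CACTA genes. The median neighbourhood share of transposable element genes was 13.0% for hAT genes, 33.2% for Mutator genes and 47.0% for CACTA genes. Summed over genes, hAT intensity was 142469 on X and 151856 on T, against 228092 on W and 237828 on Y, but the 6 brightest genes, which did not change past the threshold, held much of each sum.

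Of 29 genes listed for DNA methylation, heterochromatin or demethylation, none passed with the array-file labels. The smallest unadjusted p values there were those of SPT5L, a factor of the RNA-directed DNA methylation pathway, CLSY1, a chromatin remodeller, and HEN1, the small RNA methyltransferase, with log2 differences of 0.64, 0.35 and 0.31 (limma adjusted p = 1 for each). With the value-table labels 1 of the 29 rose (0.273% of all genes tested) and 0 fell (1.95% of all genes tested). That gene was ROS1, a DNA glycosylase that removes methylated cytosine, with 26846 on X and 31391 on T, against 4387 on W and 3879 on Y (log2 difference 2.81, SE 0.186, limma adjusted p = 0.0246). ROS1 is the demethylation gene of the list, so this rise was not that of a silencing factor. Both TEKi arrays lay above both wild-type arrays for 14 of the 29 (27.7% of all genes) and below for 7 (17.1% of all genes). The median over the 29 genes was 0.19, against 0.090 for all genes. The count was 2 rose and 1 fell with a mean-variance trend, 2 rose with median centring, a pseudocount of 50 or no genes of the lowest quartile, and 0 with plain per-gene variance. NRPE1, a subunit gene of RNA polymerase V, just missed, with 22325 on X and 28661 on T, against 6736 on W and 6840 on Y (log2 difference 1.90, limma adjusted p = 0.0551). SUVH9, a SET-domain protein of RNA-directed DNA methylation, had 31543 and 27049 on X and T, against 58527 and 60071 on W and Y (log2 difference -1.02, limma adjusted p = 0.124). The RNA polymerase gene RDR2, which makes double-stranded RNA for small RNAs, had a log2 difference of 0.88 (limma adjusted p = 0.221). The maintenance methyltransferase gene MET1 had 53840 and 51020 on X and T, against 30916 and 53046 on W and Y, and DDM1, the chromatin remodeller that keeps transposons methylated, had 29208 and 28091 against 27559 and 22247. These last 5 genes were picked after their values were seen, and none passed.

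The array also carries 5 pseudogene models described as similar to Ac-like transposases that are outside the 78. All 5 were under the lower quartile on every array, with intensities of 26.9 to 219, and none passed under either set of labels. AT3G42656 had the lowest log2 difference of the 5 with the value-table labels, at 44.7 on X and 40.0 on T, against 82.8 on W and 79.1 on Y (log2 difference -0.94, limma adjusted p = 0.133). AT3G48235 lay on the other side, at 80.2 and 211 against 55.3 and 46.6 (log2 difference 1.36, limma adjusted p = 0.420).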

How the data were processed

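The authors deposited 1 intensity per gene model and array, on a linear scale, once in array files and once in a value table. The method was RMA, per the submitters' processing notes, with neither version nor settings given in the sources used here. Every column of the value table equalled exactly 1 array file for all 30361 genes. From these intensities log2 values were computed, after leaving out 9 genes with an exact 0 on an array, none of them a hAT gene; no filter or pseudocount was used. The groups were compared in R 4.3.3 with limma 3.58.1 (lmFit, eBayes, 2-sided), with Benjamini-Hochberg adjustment over the 30352 genes tested and a threshold of adjusted p = 0.05. The array-file labels give the main result and the value-table labels a second one. The number of arrays limits precision. The procedure was tested on simulated data.

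Genes were named by rule: TEK and DAYSLEEPER; hAT genes past the threshold; the 8 largest rises and 8 largest falls with groups apart; the 8 brightest, the 4 with the widest and the 1 with the narrowest range; and the list genes with the smallest p. The rule also asked for genes with a similar pattern over arrays, which were left out because 4 arrays are too few for a correlation. Members and lists were chosen with earlier results of these data known. Alternatives were quantile normalization, median centring, plain or trended variance, a pseudocount of 50, the replicate number as a block, a filter on low signal, omission of models of several loci, adjusted p = 0.01 and leaving out each array.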

Additional observations from a re-analysis of the deposited data

How the results depend on the processing

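With the array-file labels limma called 0 hAT genes and 0 of all genes under each alternative other than the value-table labels, which gave 8 and 674. The hAT median log2 difference of 0.31 was 0.12 without the lowest quartile of level and -0.20 with the value-table labels. Leaving out 1 array at a time gave -0.062 to 0.58. With the value-table labels 8 hAT genes were called after median centring, quantile normalization or omission of models of several loci, 7 without the lowest quartile of level, 9 with a pseudocount of 50, 12 with a mean-variance trend (1150 of all genes), 0 with plain per-gene variance (0 of all genes) and 0 at adjusted p = 0.01. Without single arrays the counts were 0 to 0, for hAT and for all genes, in fits with 1 residual degree of freedom; the 8 genes kept their sign (AT1G59770, for example, -6.39 to -5.92), and the median of -0.20 ran from -0.29 to -0.035. The labels do not say what replicate numbers share. Same-numbered arrays deviated together from their group means, over 2 pairs only. Across genes r was 0.65 with the array-file labels and 0.11 with the value-table labels. In the array files the same-numbered arrays are Y with W and T with X, which are the value-table groups. In the value table they are X with W and T with Y, which are the array-file groups. By these r values a shared replicate effect and the other set of labels cannot be told apart. The replicate block of each set of labels is likewise the grouping of the other set, so these fits only adjust each comparison for the other labels. With the replicate block 0 hAT genes and 0 of all genes were called under either set of labels. At an unadjusted p under 0.05 there were 21 hAT genes with the array-file labels and the block, against 9 without it. With the value-table labels there were 27 against 26. Of the genes named for the array-file labels, 10 had the other sign with the value-table labels: AT1G35745 0.68, AT5G35912 0.76, AT5G37442 0.37, AT4G04316 -0.72, AT5G35354 -0.59, AT3G31422 -1.49, AT4G16935 -0.65, AT4G06567 -0.34, TEK 0.28 and DAYSLEEPER -0.12. Without single arrays TEK ran from -0.48 to 0.0014 and DAYSLEEPER from -0.0094 to 0.14. The cause was not tested. Dim values without detection calls limit folds against them.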
